A study of Homo sapiens with 6 samples.

Results

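The AP-1 genes described here were 9 rows of a table of RNA-seq counts, chosen by gene symbol: FOS, FOSB, FOSL1, FOSL2, JUN, JUNB, JUND, ATF3 and BATF3, out of 35474 genes listed. RNA was measured in A549 cells, a line of human lung adenocarcinoma, 48 h after transfection with siRNA. In the siBAP18 group (n = 3) the siRNA was directed at BAP18, a chromatin-associated protein encoded by C17orf49, and in the siCtrl group (n = 3) it was a non-targeting siRNA. Which of the BAP18 siRNAs of the study was transfected for sequencing is not given in the sources used here, so a single sequence or a pool cannot be told apart. The 9 genes were chosen because earlier results of this same comparison were known, so their values are a description and carry no test.

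AP-1 is a transcription factor made of pairs of basic leucine zipper (bZIP) proteins. FOS proteins pair with JUN proteins and bind a short DNA element, whereas ATF3 and BATF3 are relatives that pair with JUN proteins and can act as repressors. Many of these genes are immediate-early genes, transcribed soon after growth factors, cytokines or stress act through MAP kinases, and AP-1 is known in lung cancer cells for its part in growth, invasion and inflammation.

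Total counts ran from 46035635 to 53657450 in siCtrl and from 42094524 to 56548620 in siBAP18. The targeted C17orf49 had 743, 751 and 705 counts in siCtrl against 120, 137 and 108 in siBAP18, a log2 fold change of -2.65 ± 0.11 (SE). Of 20776 genes tested, 981 were called higher (4.72%) and 777 lower (3.74%) in siBAP18, where a call is an adjusted p under 0.05 (edgeR, quasi-likelihood test, Benjamini-Hochberg) together with a log2 fold change beyond 1 in size. The 8 genes listed as marks of A549 stayed abundant, between 620 and 10433 CPM (counts scaled to a common library total) on average in siBAP18, though all 8 were lower than in siCtrl at an adjusted p under 0.05. Among 7 listed marks of other cells, 5 lay under 1 CPM in each group, and the sum over the 7 was 76.6 to 81.9 CPM in siCtrl and 125 to 169 CPM in siBAP18, most of it CD68. Of the 5 marks of other cells that were abundant enough to be tested, 1 was called higher and 1 lower. Mitochondrial genes took 6.86% to 7.43% of counts in siCtrl and 5.27% to 6.14% in siBAP18; the part of either shift in the values below was not tested.

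Of the 9 AP-1 genes, 8 had all siBAP18 libraries above all siCtrl libraries, and BATF3 alone had groups that overlapped. Over all genes tested, 27.6% were separated in this direction. The call rule was met upward by 5 of the 9 (FOSB, ATF3, FOSL1, JUN and FOS) and downward by 0, beside 4.72%, 3.74% and, in either direction, 8.46% over all genes. Since the genes were chosen with this comparison known, nothing is read from these shares.

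RefSeq promoter entries (GRCh38.p14, from 250 bases before to 50 after a start) were found for 7 of the 9 genes, ATF3 with 2 starts; FOSL1 and BATF3 had no entry. They were searched for words of the kind that bZIP pairs bind. The AP-1 word TGANTCA and the related TGANNTCA were searched on both strands, together with TGACG, the first letters of the cyclic AMP response element, which can lie inside TGANNTCA. One window of 30 bases is shown for each gene, read along the gene's strand, with the matched word in capitals, so that the words can be set beside the values that follow.
JUN: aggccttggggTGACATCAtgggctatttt
JUND: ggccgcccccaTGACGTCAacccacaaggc
JUNB: gcttcctgacagTGACGcgagccgcctcct
FOS: tggttgagcccgTGACGtttacactcattc
FOSB: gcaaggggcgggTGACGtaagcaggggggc
FOSL2: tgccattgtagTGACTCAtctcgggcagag
ATF3: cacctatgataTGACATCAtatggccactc

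The JUN and ATF3 windows held the same 8 letters, TGACATCA. In JUN the word began 67 bases before the RefSeq start (window at chr1:58784096-58784125, minus strand), and in ATF3 it began 123 bases before the upstream one of its starts (chr1:212565273-212565302, plus strand), while the entry for the downstream start held none of the 3 words. The RefSeq start of JUN lies 280 bases inside the JUN exon of the count table, so the JUN window falls in a part that the table counts as exon. JUND carried TGACGTCA 200 bases before its start (chr19:18281804-18281833, minus strand) and TGAGCTCA at 54 bases. FOSL2 held the AP-1 word TGACTCA from base 5 after its RefSeq start (chr2:28392851-28392880, plus strand), a start that lies 410 bases inside the gene as the count table gives it. In FOS, FOSB and JUNB the match was TGACG, at 64, 60 and 137 bases before the start (chr14:75278752-75278781, chr19:45467924-45467953 and chr19:12791337-12791366, all plus strand). TGACG also lay, on either strand, in windows not shown: 123 bases before the start in JUN, 86 in JUND, and 66 and 201 in FOSL2. Among 35116 promoter entries, 7.71% held TGANTCA, 11.5% held TGANNTCA and 24.6% held TGACG. Of the 8 member entries, 1, 3 and 6 held these words, and nothing is read from these numbers. No member promoter held CTTTGAA or CTTTGAT, letters of the element that TCF proteins bind beside β-catenin, which 4.43% and 2.62% of all entries held. These matches describe letters and not binding.

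JUN, the central partner of AP-1 pairs, lies on chromosome 1 (58780788 to 58784327, minus strand, GRCh38) as 1 exon without introns. It measured 20.6, 18.9 and 20.6 CPM in siCtrl and 232, 208 and 190 CPM in siBAP18. As these are bulk cultures, a change in every cell and one in fewer cells cannot be told apart, nor can fewer cells of a type from less RNA per cell. The groups did not overlap, and the lowest siBAP18 library was at 9.21 times the highest siCtrl library. The mean was 20.0 ± 1.00 CPM (SD, n = 3) in siCtrl and 210 ± 21.1 CPM (SD, n = 3) in siBAP18, a log2 fold change of 3.39 ± 0.08 (SE), which ranked 90 from the top among the genes tested.

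JUNB and JUND, which pair with the same FOS proteins but activate transcription more weakly or under other conditions than JUN, differed less. JUNB, a single exon on chromosome 19 (12791496 to 12793315, plus strand), measured 23.3, 21.4 and 21.3 CPM in siCtrl and 39.1, 36.1 and 38.5 CPM in siBAP18, a log2 fold change of 0.78 ± 0.07 (SE). JUND, also a single exon on chromosome 19 (18279760 to 18281622, minus strand), measured 27.0, 25.7 and 27.2 CPM in siCtrl and 51.7, 46.3 and 50.5 CPM in siBAP18, a log2 fold change of 0.89 ± 0.07 (SE). For both genes every siBAP18 library was above every siCtrl library, at under 2 times the siCtrl mean. JUNB shares 259 exon bases with HOOK2 on the opposite strand, and whether the counting used strand is not given in the sources used here. HOOK2 itself had a log2 fold change of 0.32 ± 0.07 (SE, adjusted p = 0.000303 by edgeR's quasi-likelihood test).

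**Figure D1:**
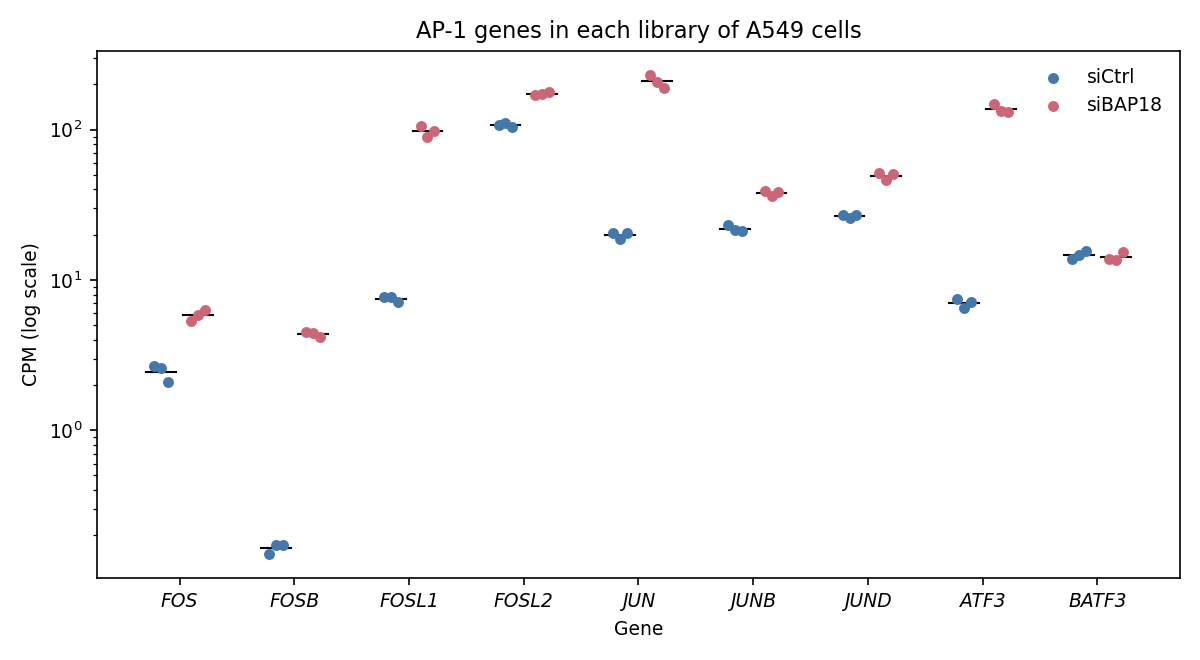
Each point is 1 library, with CPM on a log axis for the 9 AP-1 genes, siCtrl in blue and siBAP18 in red, and a black line at each group's mean (n = 3). The red points lie above the blue ones for 8 genes, most widely for FOSB (0.165 to 4.39 CPM on average), and overlap for BATF3.

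Of the FOS genes, FOSL1 (also called FRA-1), a FOS protein without the strong activation domain of FOS that is often raised in invasive carcinoma, had the largest difference in CPM. It lies on chromosome 11 (65892049 to 65900573, minus strand) and measured 7.67, 7.70 and 7.17 CPM in siCtrl against 106, 89.4 and 97.4 CPM in siBAP18. The log2 fold change was 3.70 ± 0.08 (SE), with a wide gap between the groups.

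FOSB, which encodes a full-length activator and a truncated form, lies on chromosome 19 (45467995 to 45475179, plus strand) and was close to the detection limit in siCtrl. It had 8 counts in each siCtrl library against 246, 261 and 170 in siBAP18. The log2 fold change was 4.73 ± 0.23 (SE), the widest difference among the 9 on that scale and the one with the largest SE. FOSB stayed a minor transcript, at 4.39 ± 0.176 CPM (SD, n = 3) in siBAP18.

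FOS itself, the founding immediate-early gene, lies on chromosome 14 (75278774 to 75282230, plus strand) and was low in both groups. It measured 2.67, 2.58 and 2.10 CPM in siCtrl and 5.37, 5.89 and 6.27 CPM in siBAP18, a log2 fold change of 1.25 ± 0.14 (SE). Every siBAP18 library was above every siCtrl library, by a much narrower gap than for FOSL1 or FOSB.

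FOSL2 (FRA-2), a FOS protein of slower kinetics, lies on chromosome 2 (28392448 to 28417312, plus strand) and was already abundant in siCtrl. It measured 107, 111 and 105 CPM in siCtrl and 170, 172 and 177 CPM in siBAP18, a log2 fold change of 0.68 ± 0.06 (SE). The groups did not overlap, and the spread within each was the smallest in relative terms among the 9 genes.

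ATF3, a stress-induced bZIP factor, lies on chromosome 1 (212565334 to 212620777, plus strand). It measured 7.52, 6.54 and 7.17 CPM in siCtrl and 148, 133 and 131 CPM in siBAP18, a log2 fold change of 4.27 ± 0.08 (SE). The siBAP18 mean was 19.4 times the siCtrl mean. BATF3, a JUN partner best known in dendritic cells, lies further along the same chromosome (212686418 to 212699985, minus strand) and measured 13.8, 14.7 and 15.6 CPM in siCtrl and 13.7, 13.7 and 15.3 CPM in siBAP18. Its groups overlapped, with a log2 fold change of -0.05 ± 0.08 (SE) and a 95% interval from -0.21 to 0.12.

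**Figure D2:**
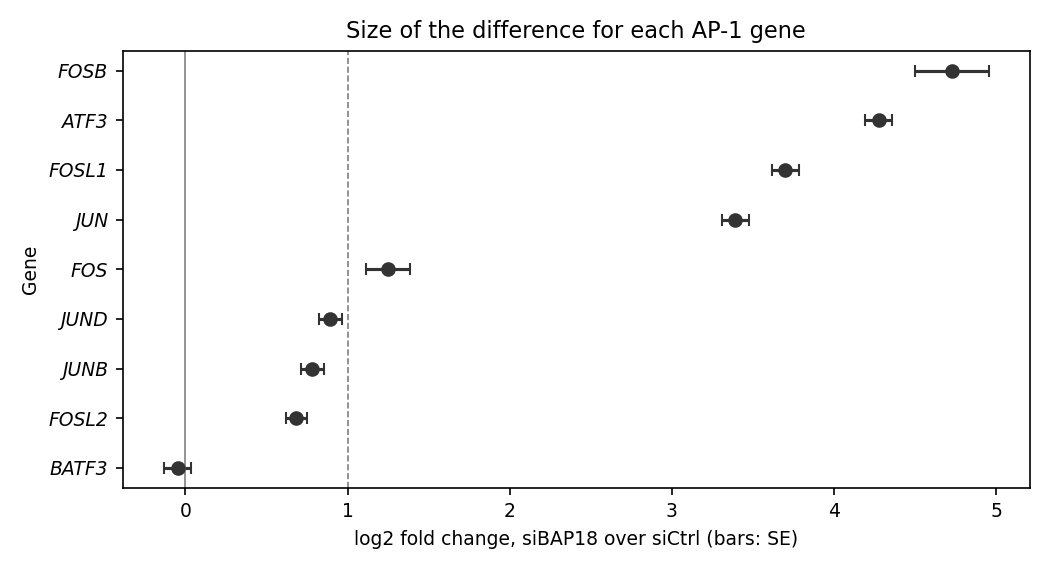
The log2 fold change of each AP-1 gene in siBAP18 over siCtrl is plotted with its SE, with lines at 0 and at 1, the size needed for a call. FOSB, ATF3, FOSL1 and JUN lie between 3.39 and 4.73, FOS at 1.25, JUND, JUNB and FOSL2 between 0.68 and 0.89, and BATF3 at -0.05.

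Levels of different genes were compared by the deposited RPKM, which scale the counts by the listed gene length and the library total. The order of genes and their shares therefore depend on those listed lengths, which need not be the length of the transcript present. In siCtrl the order by mean RPKM was FOSL2 (15.0), JUND (14.3), JUNB (12.1), JUN (5.65), BATF3 (5.41), FOSL1 (3.97), ATF3 (1.75), FOS (0.755) and FOSB (0.0296). Of the neighbours in this order, JUN and BATF3 overlapped between libraries and the other pairs did not. In siBAP18 the order was JUN (59.5), FOSL1 (51.7), ATF3 (34.0), JUND (26.6), FOSL2 (24.2), JUNB (20.8), BATF3 (5.25), FOS (1.80) and FOSB (0.793). JUN and FOSL1 overlapped between libraries there and no other neighbours did. JUN thus moved from the fourth place to the first, and FOSL1 from the sixth to the second.

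The summed RPKM of the 9 genes was 58.9 ± 0.556 (SD, n = 3) in siCtrl and 225 ± 15.0 (SD, n = 3) in siBAP18. JUN made up 9.58% ± 0.395 of that sum in siCtrl and 26.4% ± 1.65 in siBAP18 (SD, n = 3), and FOSL1 6.74% ± 0.266 and 23.0% ± 0.892. ATF3 made up 2.97% ± 0.172 and 15.1% ± 0.305 (SD, n = 3). The shares of FOSL2, JUND and JUNB were lower in siBAP18, at 10.8%, 11.8% and 9.29% against 25.5%, 24.2% and 20.5% in siCtrl, although the RPKM of each was higher. The share of the 4 FOS genes together was 33.6% ± 1.25 in siCtrl and 35.0% ± 0.961 in siBAP18, with overlapping libraries, while that of the 3 JUN genes was 54.3% ± 1.17 and 47.6% ± 0.859 (SD, n = 3).

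**Figure D3:**
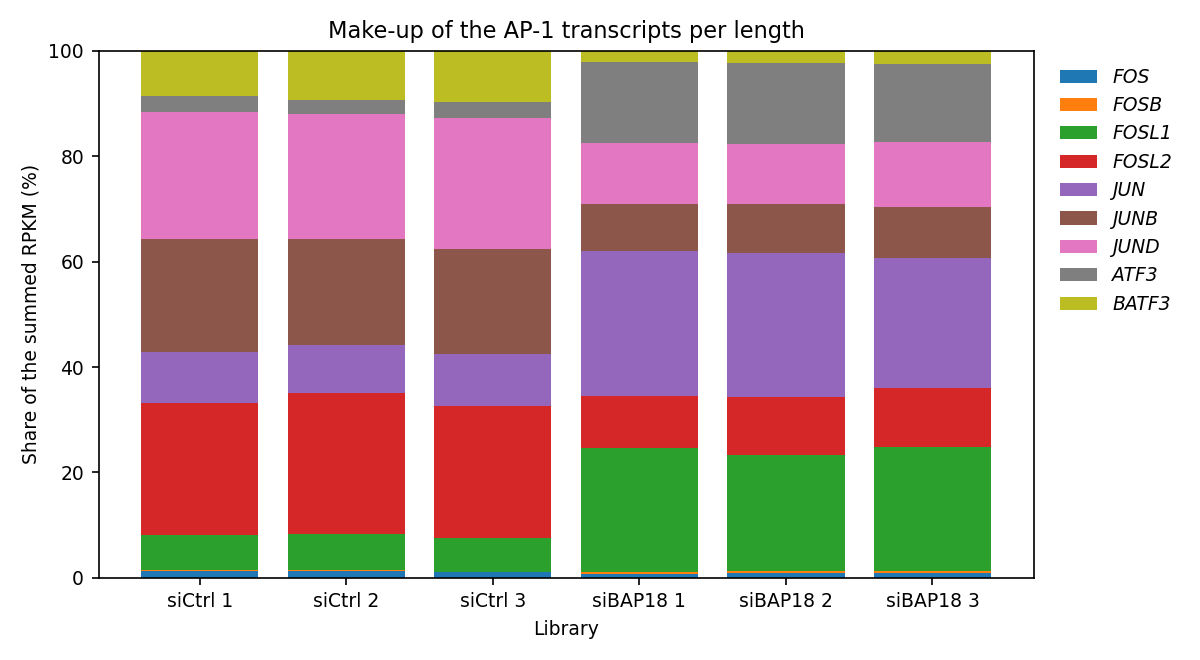
Stacked bars give each AP-1 gene's share of the summed RPKM of the 9 genes, in percent, for each of the 6 libraries. JUN, FOSL1 and ATF3 fill most of the siBAP18 bars, whereas FOSL2, JUND and JUNB fill most of the siCtrl bars.

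The ratio of JUN to JUNB by RPKM was 0.456, 0.453 and 0.497 in siCtrl and 3.05, 2.96 and 2.54 in siBAP18. That of FOSL1 to FOSL2 was 0.271, 0.263 and 0.259 in siCtrl and 2.37, 1.97 and 2.09 in siBAP18. Both ratios thus lay under 1 in every siCtrl library and over 1 in every siBAP18 library.

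The 3′ UTRs of immediate-early mRNAs often carry AU-rich words that mark them for decay. In the GENCODE 29 transcript with the longest coding sequence, ATTTA occurred in the 3′ UTR of all 9 genes, from 1 time in FOSL1, JUND and BATF3 to 9 times in FOSL2, beside 68.2% of 13256 genes tested whose UTR had at least 50 bases. The longer TATTTAT occurred in 7 of the 9, all but JUNB and BATF3, beside 31.4% of those genes. These counts were not scaled to UTR length, which ran from 373 bases in BATF3 to 4864 in FOSL2. Per kilobase, FOS had 6.20 ATTTA words and JUNB 4.00, beside a median of 1.54 over those genes. FOSB at 1.39, JUND at 1.47 and FOSL1 lay under that median, and FOSL2, JUN, ATF3 and BATF3 lay between 1.85 and 2.68. The share of those genes at or above the member was 5.56% for FOS and 16.0% for JUNB. For the other members it ran from 31.6% (BATF3) to 52.9% (FOSB).

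Other bZIP factors, which can pair with the AP-1 proteins or compete for similar elements, were called higher in 7 of 34 tested and lower in 0, with a median log2 fold change of 0.51 beside 0.001 over all genes. That was 20.6% called higher, beside 4.72% higher and 3.74% lower over all genes. At an adjusted p under 0.05 by edgeR's quasi-likelihood test alone, 20 were higher and 8 lower, beside 24.5% and 25.1% of all genes. As the gene lists were chosen with earlier results known, nothing is read from such shares here or below. DDIT3 (CHOP), a stress-induced factor, had the smallest adjusted p of the list: 11.3 ± 0.795 CPM in siCtrl and 173 ± 14.1 CPM in siBAP18 (SD, n = 3), a log2 fold change of 3.94 ± 0.08 (SE, adjusted p = 6.54e-22 by edgeR's quasi-likelihood test). MAFF, a small MAF protein without an activation domain, and DBP, a factor of circadian output, rose by 2.11 ± 0.07 and 2.55 ± 0.10 (log2, SE). CREB5 rose by 4.56 ± 0.22 (log2, SE) from 0.245 CPM. The other 3 called, named after their values were seen, were MAF, HLF and TEF. JDP2, a repressor of AP-1 that lies on chromosome 14 like FOS, had a log2 fold change of 0.52 and was higher at an adjusted p under 0.05 without being called. NFE2L2 and BACH1, which act on antioxidant genes, had log2 fold changes of -0.84 and -0.98.

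Other immediate-early genes, which respond to the same signals as FOS and JUN, were called higher in 14 of 30 tested and lower in 1, with a median log2 fold change of 0.90. The shares called were 46.7% and 3.33%, beside 4.72% and 3.74% over all genes. PPP1R15A (GADD34), which directs dephosphorylation of a translation factor, rose from 219 ± 9.99 to 4011 ± 235 CPM (SD, n = 3), a log2 fold change of 4.20 ± 0.08 (SE, adjusted p = 1.24e-22 by edgeR's quasi-likelihood test). EGR1, a zinc finger factor, rose by 6.33 ± 0.14 (log2, SE) from only 18, 16 and 14 counts in siCtrl. CSRNP1 rose by 2.53 ± 0.08 and BTG2, an antiproliferative gene, by 2.17 ± 0.07 (log2, SE). ID1, an inhibitor of helix-loop-helix factors, fell by 1.13 ± 0.08 on the log2 scale. NR4A1 and MYC, also of this class, had log2 fold changes of -0.72 and -0.03.

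Of 33 tested genes described as AP-1 targets, 7 were called higher and 1 lower, with a median log2 fold change of 0.28. These were 21.2% and 3.03% of the 33, beside 4.72% and 3.74% over all genes. At an adjusted p under 0.05 by edgeR's quasi-likelihood test alone, 17 were higher and 10 lower, beside 24.5% and 25.1% of all genes. The cytokine IL11 rose from 2.42 ± 0.293 to 10.6 ± 1.11 CPM (SD, n = 3), a log2 fold change of 2.12 ± 0.12 (SE, adjusted p = 4.68e-13 by edgeR's quasi-likelihood test), and the chemokine CCL2 rose by 2.09 ± 0.16 (log2, SE). IVL (involucrin), a protein of the cornified envelope, was counted 2, 0 and 0 times in siCtrl and 112, 110 and 58 times in siBAP18, a ratio of 134 with a 95% exact interval of 36.7 to 1109 that covers counting error only. Both siCtrl counts came from replicate 1, and without that library IVL was at least 56.8-fold higher, against a floor of 3 counts over the other siCtrl libraries. The gap junction gene GJA1 fell by 1.53 ± 0.07 on the log2 scale. The collagenase MMP1, a classic AP-1 target, had 0.399 CPM in siCtrl and 0.518 CPM in siBAP18 and was not called. CCND1 and FN1 had log2 fold changes of -0.79 and -0.80.

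**Figure D4:**
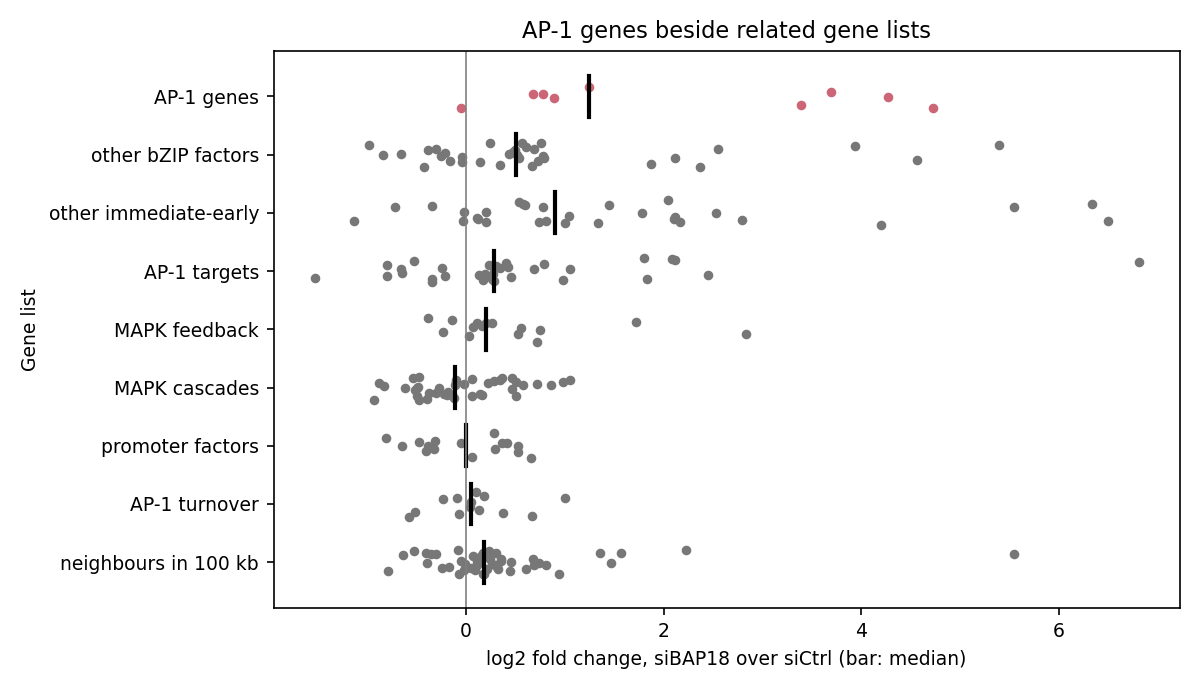
Points are genes, grouped by list, with the log2 fold change in siBAP18 over siCtrl on the x axis and a black bar at each list's median; AP-1 genes are in red. The medians are 1.25 for the AP-1 genes, 0.51 for other bZIP factors, 0.90 for other immediate-early genes and -0.11 for MAP kinase cascades, and the AP-1 genes were chosen with these values known.

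Genes of the RAS, RAF and MAP kinase cascades, which act on AP-1 proteins mainly by phosphorylation, had a median log2 fold change of -0.11. They were called higher in 1 of 41 tested (2.44%, beside 4.72% over all genes) and lower in 0 (beside 3.74%). The 1 was MAP2K3, a kinase above p38, with a log2 fold change of 1.06 ± 0.07 (SE). At an adjusted p under 0.05 by edgeR's quasi-likelihood test alone, 10 were higher and 16 lower (11 and 16 unadjusted; DESeq2 also called 0 lower), beside 24.5% and 25.1% of all genes. The JNK genes MAPK8 and MAPK9 had log2 fold changes of -0.39 and -0.53. These are levels of mRNA and not of kinase activity.

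Of 15 tested phosphatase and Sprouty genes that act back on MAP kinases, 13.3% were called higher and 0 lower, beside 4.72% and 3.74% over all genes. The 2 called were DUSP8 and DUSP10, phosphatases of JNK and p38, at 2.84 ± 0.15 and 1.72 ± 0.13 (log2, SE). DUSP1, which acts on the same kinases, had a log2 fold change of 0.75 and DUSP5 of -0.38. Among 16 tested factors known at the FOS and JUN promoters 0 were called in either direction, beside 8.46% of all genes. At an adjusted p under 0.05, 6 were higher and 7 lower, beside 24.5% and 25.1% of all genes. At an unadjusted p under 0.05 the numbers were 7 and 7, and DESeq2's Wald test called 0. SRF and ELK1, which bind the serum response element of FOS, had log2 fold changes of 0.42 and 0.53. Of 13 tested genes for turnover of AP-1 protein or mRNA 0 were called, beside 8.46% of all genes. At an adjusted p under 0.05, 4 were higher and 3 lower, beside 24.5% and 25.1% of all genes, and an unadjusted p under 0.05 gave the same 4 and 3. DESeq2's Wald test called 1, TRIB1, whose log2 fold change lay at 1.00. ZFP36, which binds AU-rich words, had a log2 fold change of 0.38 and ZFP36L2 of -0.52.

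Heat shock genes mark only some forms of stress on the cells, and the list does not hold the stress-induced ATF3 and DDIT3 given above. Of the 10 heat shock genes tested 0 were called, beside 8.46% of all genes, and their median log2 fold change was -0.19. At an adjusted p under 0.05, 2 were higher and 5 lower, beside 24.5% and 25.1% of all genes. At an unadjusted p under 0.05 the numbers were 2 and 6, and DESeq2 called 0. Interferon and RNA sensor genes, which transfected RNA can raise, were called higher in 1 of 11 tested (MX1, 1.21 ± 0.12, log2, SE) and lower in 0. The share called higher was 9.09%, beside 4.72% over all genes, where 3.74% were called lower. The summed level of the interferon genes was 111 to 116 CPM in siCtrl and 86.1 to 89.3 CPM in siBAP18. OAS1 alone made up 80.7 ± 0.56 CPM of it in siCtrl and 52.1 ± 2.68 CPM in siBAP18 (SD, n = 3), and without OAS1 the sum was 30.7 to 34.7 CPM and 34.2 to 36.2 CPM.

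Of 47 tested genes within 100000 bases of a member, 5 were called higher and 0 lower, with a median log2 fold change of 0.18. Those called higher were 10.6% of the 47, beside 4.72% over all genes, where 3.74% were called lower. C11orf68, 16235 bases from FOSL1, rose by 2.23 ± 0.10 and GDF15, a stress-induced cytokine 93109 bases from JUND, by 1.47 ± 0.07 (log2, SE). RP11-61J19.5, 5603 bases from ATF3, was counted 0, 2 and 2 times in siCtrl and 97, 80 and 40 times in siBAP18. PDE4C near JUND and PRDX2 near JUNB, the latter named after its values were seen, were called at low counts. CCDC85B, 414 bases from FOSL1, had a log2 fold change of 0.68, and ERCC1, whose span overlaps FOSB without sharing exons, of 0.11.

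By Pearson r of log2 CPM over the 6 libraries, among 14213 genes, the genes most like JUN were DDIT3, PFDN2 and HDAC9, those most like FOSL1 were ANKRD1, RP11-475I24.3 and EGR1, and those most like FOS were RNF8, CPSF1 and GNPDA1. The 6 libraries form 2 separated groups, so any gene split by group has a high r: 1750 genes had an r over 0.95 with JUN, 1826 with FOSL1 and 1300 with FOS. The likeness covers genes of very different size of change, from ANKRD1 with 279, 249 and 228 counts in siCtrl and 5477, 4975 and 3458 in siBAP18 to RP11-475I24.3 with 386, 338 and 335 against 525, 558 and 389.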

How the data were processed

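RNA was sequenced from 3 siCtrl and 3 siBAP18 cultures of A549 cells, described per the labels as biological replicates. The authors deposited raw counts per gene and RPKM values (counts scaled by the listed gene length and the library total). The submitters' processing notes name the builds hg38 and GRCm38; the aligner, the counting program and its use of strand are not given in the sources used here. A count of 0 allows up to 3 counts, which covers counting error only.

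Counts were filtered with filterByExpr, scaled by TMM and compared with edgeR 4.0.16 (R 4.3.3) by the quasi-likelihood test, with Benjamini-Hochberg adjustment over 20776 genes. CPM values use TMM-scaled totals. SEs were derived as the size of the log2 change over the root of the F statistic. The 9 members and the gene lists were chosen with earlier results of these data known. Named genes were the members, the targeted gene, genes sharing exons with a member, in each list up to 4 called genes a direction with the smallest adjusted p, and the 3 genes most like JUN, FOS and FOSL1 at an average log2 CPM of at least 1; others were named as examples after their values were seen. Some genes that the lists hold are not reported here by name. After the rows were seen, 134 rows covering several loci were kept out of the neighbours. On simulated data for this comparison (20444 genes), 100 of 100 genes changed by a log2 of 2 and 100 of 100 changed by 3 were called, as were 3 unchanged genes. The counts were drawn with dispersions fitted to these libraries, and the changed genes were more abundant than FOSB in siCtrl. The simulation therefore does not cover genes as low as FOSB or changes near the limit of 1. Residuals of same-numbered libraries were little correlated (Pearson r -0.017, 0.051 and 0.0038), beside -0.0374 to 0.0344 for libraries of different numbers. These values cannot show whether the libraries were handled in numbered pairs. Replicates differed beyond sampling noise in every pair (chi-square over its degrees of freedom, 4.17 to 4.87 between siCtrl libraries and 11.0 to 25.8 between siBAP18 libraries). Alternatives used DESeq2 1.42.0 and limma 3.58.1. Sequences came from RefSeq (GRCh38.p14) and GENCODE 29, read with Python 3.11.15; plots were drawn with matplotlib 3.10.9.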

Additional observations from a re-analysis of the deposited data

How the results depend on the processing

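Across the alternatives on counts (DESeq2 size factors, upper-quartile scaling, total counts, the Wald test of DESeq2, the likelihood ratio test of edgeR, or no filter), 5 AP-1 genes were called higher and 0 lower, and leaving out any 1 library also gave 5. A filter of 10 counts in every library left 4, since it drops FOSB at 8 counts in siCtrl, and limma on log2(RPKM + 0.1) also gave 4, with FOSB at a mean of 0.411 RPKM over the 6 libraries, under the filter of 0.5. On log2(RPKM + 1) with limma, where the added 1 shrinks low genes by construction, the number was 3 with and without a filter, and the log2 fold changes were 3.67 for ATF3, 3.40 for FOSL1, 3.18 for JUN and 0.68 for FOS, and without a filter 0.80 for FOSB. There 4 other bZIP factors, 11 other immediate-early genes, 4 targets, 1 feedback gene, 2 neighbours, 0 kinases and 0 interferon genes were called higher, and 215 genes higher and 133 lower (212 and 133 without a filter). The immediate-early median was 0.72 there, and 0.57 without a filter, against 0.90 in the main fit. The bZIP median was 0.40, and 0.24 without a filter, against 0.51. On counts, the immediate-early median was 0.80 without a filter and also at 10 counts in every library. With 0.1 added the numbers were 475 and 434 over all genes, 4 bZIP factors and 2 neighbours. At 10 counts in every library, 605 genes and 3 neighbours were called higher. Of the turnover genes, 1 (TRIB1) was called under DESeq2 size factors, upper-quartile scaling, total counts, DESeq2's Wald test and 10 counts in every library, because its change lies at the limit of 1. The median of the interferon genes turned from -0.05 to 0.13 without a filter and to 0.00194 on log2(RPKM + 1) without one; the cause was not tested.

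With 1 library left out, bZIP factors called lower ran from 0 to 1 (1 without siCtrl replicate 2 or siBAP18 replicate 2), kinases called higher from 1 to 3 (3 without siCtrl replicate 3, 2 without siBAP18 replicate 1 or 2) and lower from 0 to 1 (1 without siCtrl replicate 1), neighbours called lower from 0 to 1 (1 without siBAP18 replicate 2) and turnover genes called higher from 0 to 1. The log2 fold change of FOSB ran from 4.66 to 4.76, the interferon median from -0.10 to 0.10 and the promoter factor median from -0.061 to 0.0509. With the replicate number as a block, 5 AP-1 genes were called higher, and 1741 genes were called in all against 1758.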
